A study of Danio rerio with 12 samples.

Results

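Loss of p53 was examined in zebrafish embryos that carry an activated human BRAF transgene, by setting 3 arrays of BRAF;p53 embryos against 3 arrays of BRAF embryos. These are 6 of the 12 arrays of the series, and they were chosen by genotype label alone. BRAF;p53 embryos (double mutants) were tg(mitf-BRAFV600E) homozygotes that also lacked p53 function through the homozygous M214K allele. BRAF embryos were tg(mitf-BRAFV600E) homozygotes with no p53 allele named in their labels. The other 6 arrays held 3 of p53 M214K homozygotes without the transgene and 3 of Tu, the wild-type strain. All embryos were whole, were collected at 80 hours post fertilization (hpf) from incrosses of adults, and gave total RNA for an Affymetrix zebrafish array. The number of embryos and of clutches behind an array was not given in the sources used here, so p-values cover no more than how these samples differ within a genotype, which can be technical. Line background and clutch cannot be told apart from the p53 genotype here. An effect of p53 below means the difference between the genotype groups compared.

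p53 is a transcription factor that damage and oncogene signalling stabilise, and it switches on genes for cell cycle arrest, DNA repair and apoptosis. BRAF with the V600E change is a kinase that signals through MEK and ERK without an upstream cue, and is the commonest driver of human melanoma and of benign naevi. The mitf promoter restricts the transgene largely to pigment cells of neural crest origin, melanophores above all, and zebrafish that carry it and lack p53 are a known model of melanoma. The M214K allele is a substitution in the DNA-binding domain, so that a transcript level would not check the genotype. No value reported here checks the p53 genotype or the transgene. In whole-embryo RNA, fewer cells of a type and less RNA per cell cannot be told apart.

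The deposited values are log2 values centred per probe set over the 12 arrays, and a difference of 1 is a doubling. The median is 0 for 13937 of 15617 probe sets and below 0 for 1680, so that 0 is the middle level of most probe sets but not of all. Among the probe sets named here the median is below 0 for ush1c, tyr, krt93, bco2l and 1 of dusp6. A level cannot be compared between probe sets, the brightness over background is unknown, and the presence of a tissue's marker cannot be checked on such values. Of all probe sets, 115 manufacturer's controls were left out and 15502 were tested. Across those probe sets the arrays of BRAF;p53 embryos correlated with each other at 0.755 to 0.840. BRAF replicate 1 stood apart, with correlations of 0.564 and 0.409 to the other BRAF arrays against 0.834 between those. Among the arrays without the transgene, p53 replicate 3 stood apart, with 0.467 and 0.477 against 0.747. Median within-genotype SD was 0.0998 in BRAF;p53, 0.1715 in BRAF, 0.1555 in p53 and 0.1213 in wild type. The number of arrays limits the precision of every value below.

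Between BRAF;p53 and BRAF embryos, 698 of 15502 probe sets passed limma's test at a Benjamini-Hochberg adjusted p of 0.05, or 4.50%. Of these, 314 were higher in BRAF;p53 (2.03% of those tested) and 384 were lower (2.48%). That balance depends on the scaling, since quantile normalization gave 473 higher and 401 lower. The median size of a called difference was 0.79 on the log2 scale, and the smallest was 0.32. A log2 difference of at least 1 was found for 220 of them, 117 higher and 103 lower. In all 698 the arrays of the 2 genotypes did not overlap, which was so for 29.0% of all probe sets. The median difference over all probe sets was -0.06, and 60.4% of them had a negative difference. BRAF replicate 1 had an array median of 0.08, while every other array lay between -0.04 and -0.002. The part of that array in the share of negative differences was not tested. A symbol was attached to 482 of the called probe sets, 453 genes in all, and 2 more carried several symbols. None of the 115 controls was called, 9 were at an unadjusted p under 0.05, and their lowest adjusted p was 0.0684. Leaving out 1 array at a time, the count was lowest without BRAF;p53 replicate 1, at 302, and next lowest, at 320, when replicate 2 of that genotype was left out. Without BRAF replicate 1 it was 655, and without that array and p53 replicate 3 together it was 1162.

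**Figure D1:**
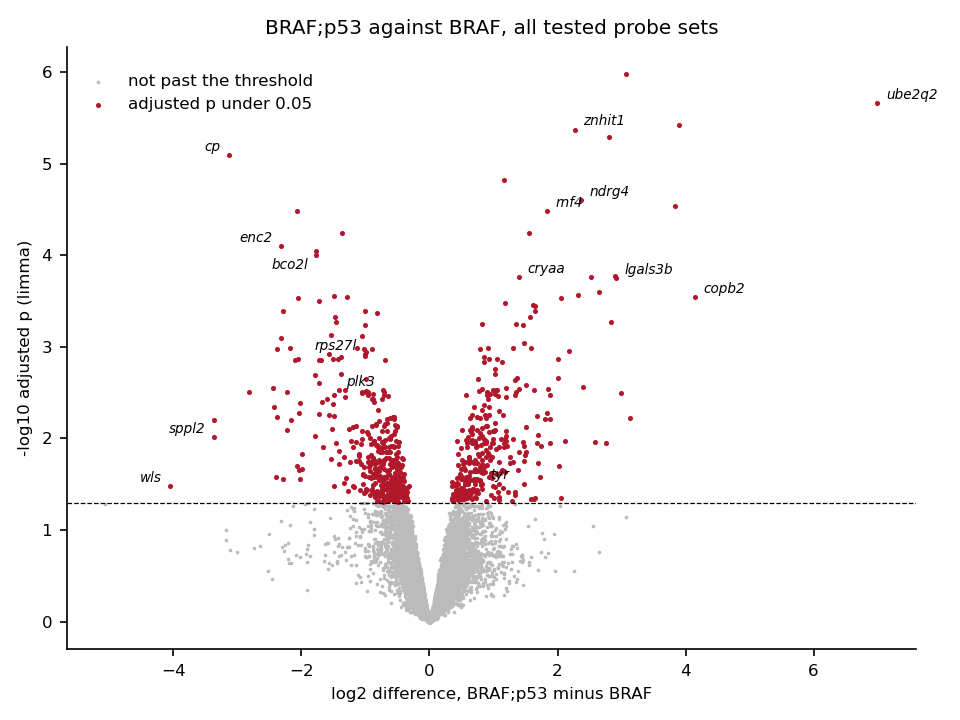
Log2 difference of BRAF;p53 minus BRAF (x axis) against minus log10 of limma's adjusted p (y axis) for the 15502 tested probe sets, with the 698 past the threshold in red and some of the genes described in the text named. The probe set of ube2q2 lies alone at 7.0, and the falls reach -4.06 for wls.

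Among genes listed as p53 targets or linked to cell death, 3 fell in BRAF;p53 embryos and none rose. The list was not limited to genes that p53 induces. The list held 37 measured genes on 52 probe sets, and its calls came to 5.77% of its probe sets, against 4.50% of all. Its median difference was -0.10, against -0.06 over all probe sets, and 35 of its probe sets were negative. The 3 that fell were rps27l, plk3 and mcl1b.

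The gene rps27l, a ribosomal protein S27 paralogue that is a direct p53 target in human cells, had values of -0.71, -0.61 and -0.60 in BRAF;p53 embryos, against 0.46, 0.36 and 0.27 in BRAF embryos. The arrays of the 2 genotypes were far apart, and all 3 arrays of BRAF;p53 were also lower than those of p53 embryos, which ran from -0.26 to -0.06. It fell by 1.00 ± 0.12 (SE) on the log2 scale, 2.00-fold, with limma's adjusted p = 0.00119. Without the transgene the difference of p53 minus wild type was -0.49 ± 0.12, with limma's adjusted p = 0.0756, and the difference between the 2 effects, -0.51 ± 0.17, did not pass (limma's adjusted p = 0.14). It was called in all 12 fits that left out 1 array.

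The gene plk3, a polo-like kinase of the stress response, had values of -0.42, -0.27 and -0.49 in BRAF;p53 embryos, against 0.38, 0.28 and 0.35 in BRAF embryos. The 2 genotypes were well apart, and the arrays without the transgene lay between them, from -0.13 to 0.22. The difference was -0.73 ± 0.10 (limma's adjusted p = 0.00294), called in all 12 such fits. In embryos without the transgene it was -0.05 ± 0.10, and the effect with the transgene minus that without it was -0.68 ± 0.14 (limma's adjusted p = 0.0304).

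The gene mcl1b, which encodes an anti-apoptotic BCL2 relative, averaged -0.25 ± 0.14 in BRAF;p53 and 0.38 ± 0.23 in BRAF embryos (SD, n = 3 each). Its difference of -0.63 ± 0.16 barely passed (limma's adjusted p = 0.0473) and held in 3 of the 12 fits, and was at 0.185 once BRAF;p53 replicate 2 was left out. The other genes of the list did not pass. They include ccng1, cyclin G1, at -0.10 ± 0.10 (limma's adjusted p = 0.572), for which the arrays of the 2 genotypes overlapped. The pro-apoptotic BH3 genes bbc3 and pmaip1, the death receptor fas and the effector baxa did not pass either. The list was not all lower, since 17 of its probe sets had positive differences, up to 0.76, none past the threshold. Limma's interaction test passed for 3 probe sets of the list, that of plk3 among them. Without the transgene, 2 probe sets of the list were called lower in p53 embryos than in wild type and none was called higher.

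Of the 9 measured genes listed as regulators of p53, on 12 probe sets, 1 rose and none fell, or 8.33% of probe sets called against 4.50% of all. That list includes the p53 relatives tp63 and tp73. Its 1 called gene was usp7. It encodes the deubiquitinase that removes ubiquitin from Mdm2 and p53, and its called probe set had -0.02, -0.06 and 0.15 in BRAF;p53 embryos, against -0.54, -1.47 and -1.40 in BRAF embryos. The BRAF arrays were low, and those of the double mutant were near the level of the arrays without the transgene. The rise was 1.16 ± 0.21 (limma's adjusted p = 0.0112). The other probe set of usp7 did not pass, with limma's adjusted p = 0.959. The ubiquitin ligase gene mdm2, which p53 induces and whose product degrades p53, was in this list and differed by -0.14 ± 0.17 with overlapping arrays (limma's adjusted p = 0.644).

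**Figure D2:**
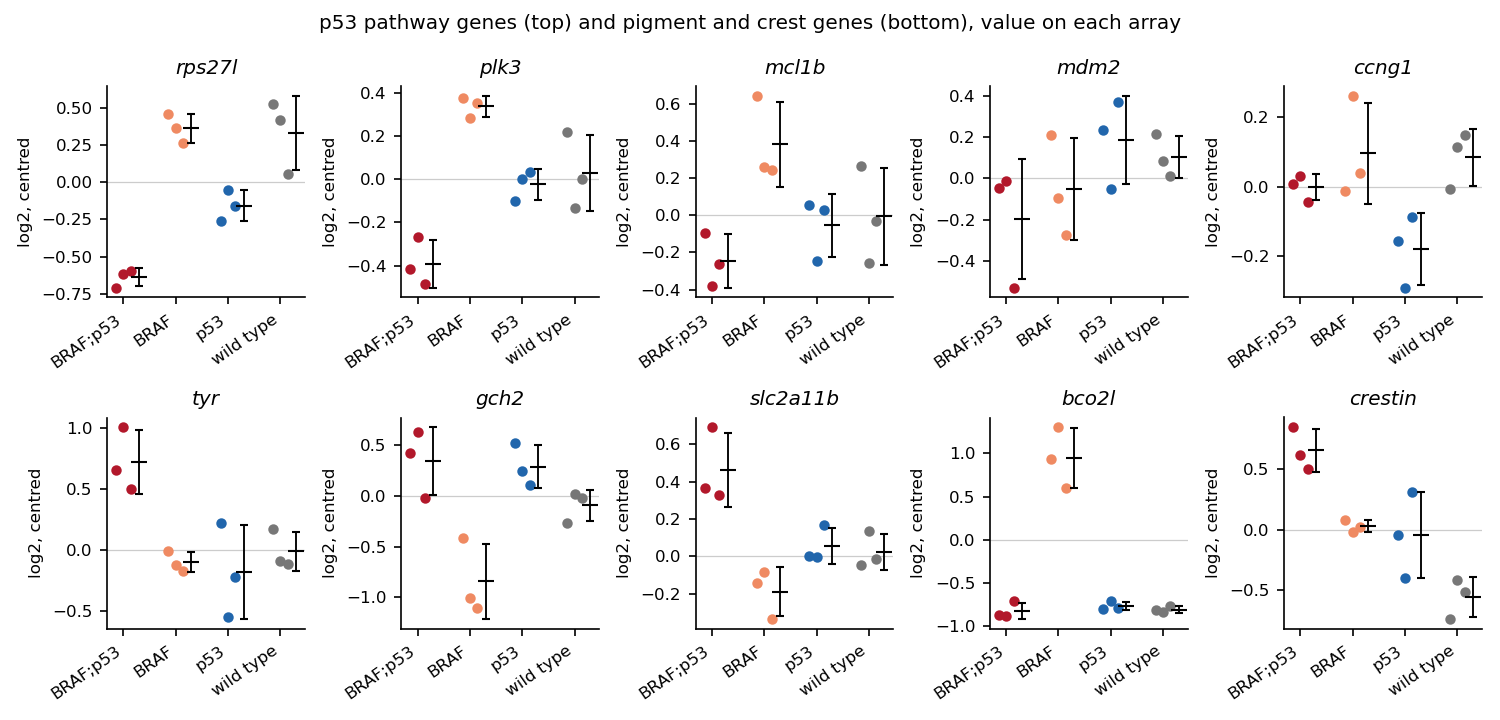
Centred log2 value (y axis) of 4 genes of the p53 target list and the regulator mdm2 (top row) and 5 pigment and crest genes (bottom row) on each of the 12 arrays by genotype (x axis), 3 points a genotype, with the mean and SD beside them. Where a gene has several probe sets the one with the lowest adjusted p is drawn, and each panel has its own scale. The arrays of BRAF;p53 lie below all BRAF arrays for rps27l, plk3 and mcl1b, overlap them for mdm2 and ccng1, and lie above them for tyr, gch2, slc2a11b and crestin.

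Other transcripts followed rps27l closely over the 12 arrays, and 10 are named. The rule ranked all probe sets with 1 gene symbol, 10795 in number, by Pearson's r with rps27l and took the 10 highest. These values describe the pattern and carry no test, since the arrays share genotypes. The closest was mfsd4b, a member of the major facilitator transporter family, at 0.915, followed by nudt8 at 0.895 and by capn2l, a calpain protease, at 0.883. The other 7 were rps19bp1, ube2g2, itm2ba, wdr48a, xbp1, micos10 and pdha1a, at 0.855 to 0.879. Between BRAF;p53 and BRAF embryos, rps19bp1, micos10 and pdha1a did not pass (limma's adjusted p = 0.141, 0.103 and 0.181).

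Pigment and crest genes moved in both directions. Melanophore genes gave 1 rise and no fall among 9 probe sets of 9 genes, or 11.1% called against 4.50% of all probe sets. The riser was tyr, tyrosinase, which starts melanin synthesis, with 0.65, 1.00 and 0.50 in BRAF;p53 embryos, against -0.01, -0.12 and -0.17 in BRAF embryos. All 3 arrays of BRAF;p53 were above every other array in the series, at a difference of 0.82 ± 0.18 from BRAF (limma's adjusted p = 0.0311). The call held in 7 of the 12 fits, and was at 0.136 once BRAF;p53 replicate 2 was left out. The lineage's master factor mitfa differed by -0.00 ± 0.18 and dct, a melanin synthesis enzyme, by 0.10 ± 0.30, neither past the threshold (limma's adjusted p = 0.995 and 0.873).

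Xanthophore and carotenoid genes gave 1 rise and 2 falls among 18 probe sets of 12 genes, or 16.7% called against 4.50% of all probe sets. The gene gch2, a GTP cyclohydrolase at the start of yellow pteridine synthesis, had 0.43, 0.63 and -0.02 in BRAF;p53 embryos, against -0.41, -1.01 and -1.10 in BRAF embryos. The BRAF arrays lay below all others for this probe set, and the rise was 1.19 ± 0.21 (limma's adjusted p = 0.00947). Its second probe set differed by 0.58 and did not pass (limma's adjusted p = 0.206).

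The largest pigment-list change was in bco2l, which encodes a carotenoid-cleaving oxygenase. It had -0.88, -0.88 and -0.71 in BRAF;p53 embryos, against 0.93, 1.30 and 0.60 in BRAF embryos. The 6 arrays without the transgene ran from -0.84 to -0.71, so that BRAF embryos alone were high and double mutants had values close to those without the transgene. The median of this probe set is below 0 and its brightness over background is unknown. Whether the low arrays lie at background was not tested, so the size of the fall may not measure the transcript. It fell by 1.77 ± 0.14 on the log2 scale (limma's adjusted p = 8.9e-05) and it differed from the effect of p53 without the transgene by -1.81 ± 0.20 (limma's adjusted p = 0.000779). The gene bco1, for the enzyme that cleaves beta-carotene to retinal, fell by 1.46 ± 0.27 (limma's adjusted p = 0.0113), a call held in 10 of 12 fits, with 0.054 without BRAF;p53 replicate 2. Both enzymes also act outside pigment cells.

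Of 7 genes measured from the iridophore list, slc2a11b rose, or 14.3% of its probe sets called against 4.50% of all. The rise was 0.65 ± 0.12 (limma's adjusted p = 0.0106), with 0.37, 0.69 and 0.33 in BRAF;p53 embryos and -0.15, -0.08 and -0.34 in BRAF embryos. The measured genes were mostly of purine synthesis, without the iridophore markers ltk and pnp4a, so the rise cannot be assigned to iridophores. Of 27 neural crest probe sets of 18 genes, 1 probe set of snai2 rose, or 3.70% called against 4.50% of all. It rose by 0.55 ± 0.12 (limma's adjusted p = 0.0311), held in 7 of 12 fits, with 0.139 without BRAF;p53 replicate 1. The other probe sets of snai2 differed by -0.17 and 0.17 and did not pass. The crest marker crestin, known in zebrafish to be switched on again in melanoma, had 0.85, 0.62 and 0.51 in BRAF;p53 embryos, against 0.08, -0.02 and 0.02 in BRAF embryos. Its arrays did not overlap, but the difference of 0.63 ± 0.17 did not pass (limma's adjusted p = 0.0562). The crest factor sox10 differed by 0.23 ± 0.16 and did not pass (limma's adjusted p = 0.428).

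Targets and feedback inhibitors of ERK signalling were lower on 35 of 39 probe sets of 25 genes, against 60.4% lower of all probe sets. Of the 39, 1 probe set passed, or 2.56% against 4.50% of all. The list's median was -0.23, against -0.06 over all probe sets. Its per-array median ran from -0.16 to -0.04 in BRAF;p53 embryos and from 0.003 to 0.144 in BRAF embryos. Without the transgene it was 0.045, 0.023 and -0.563 in p53 embryos and 0.098, -0.079 and -0.103 in wild type. That range was wider than the range over BRAF;p53 and BRAF arrays together, but only through p53 replicate 3, at -0.563. The other arrays without the transgene lay between -0.103 and 0.098, which is a narrower range than that of the BRAF;p53 and BRAF arrays. The list's median for p53 minus wild type was -0.12. The gene that passed was spred1, an inhibitor of Ras to Raf signalling, by -0.89 ± 0.17 (limma's adjusted p = 0.0162), with 10 of 12 fits past the threshold and 0.0582 without BRAF;p53 replicate 3. The other probe sets of spred1 did not pass. The feedback inhibitor spry4 was above all arrays without the transgene in both genotypes, at 0.43, 0.38 and 0.42 in BRAF;p53 embryos and 0.23, 0.48 and 0.27 in BRAF embryos, and its difference of 0.08 ± 0.09 did not pass (limma's adjusted p = 0.615). The phosphatase dusp6, another ERK feedback gene, differed by -0.13 and -0.26 on its probe sets, neither past the threshold.

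Lipid and sterol genes gave 6 falls and no rise among 36 probe sets of 25 genes, that is 16.7% of its probe sets called against 4.50% of all. The median was -0.18 and 31 probe sets were negative. The per-array median of the list lay between -0.23 and -0.17 in BRAF;p53 embryos and between 0.009 and 0.119 in BRAF embryos. The falls spanned desaturation, sterol synthesis and fatty acid oxidation.

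The desaturase fads2, which makes polyunsaturated fatty acids, had -0.93, -0.27 and -0.06 in BRAF;p53 embryos, against 1.33, 1.13 and 1.48 in BRAF embryos. The groups were well apart, it fell by 1.73 ± 0.27 (limma's adjusted p = 0.00536), and it was called in all 12 fits. Without the transgene, p53 minus wild type was -1.20 ± 0.27 (limma's adjusted p = 0.0526).

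In the sterol branch, msmo1 fell by 1.54 ± 0.30, dhcr7, the last step of cholesterol synthesis, by 1.30 ± 0.29, and mvk, mevalonate kinase, by 0.57 ± 0.09, with limma's adjusted p = 0.0166, 0.0271 and 0.00579. The mvk call held in all 12 fits, that of msmo1 in 11 (0.0556 without BRAF replicate 2) and that of dhcr7 in 7 (0.116 without BRAF;p53 replicate 1). The mitochondrial carnitine enzyme cpt2 fell by 0.72 ± 0.12 (limma's adjusted p = 0.00733, all 12 fits) and the long-chain dehydrogenase acadl by 0.64 ± 0.15 (limma's adjusted p = 0.0331, 6 of 12 fits, 0.128 without BRAF;p53 replicate 2). The second probe set of cpt2 did not pass (limma's adjusted p = 0.187).

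All 19 probe sets of 17 exocrine pancreas genes were lower in BRAF;p53 embryos, with a median of -1.91. The arrays did not overlap for 17 of the 19, against 29.0% of all probe sets, yet none passed limma's adjusted threshold. At an unadjusted p under 0.05 there were 13, against 22.0% of all probe sets. The lowest adjusted p was 0.0513, for the elastase gene ela3l at -5.07. The per-array list median was -1.26, -1.11 and -0.96 in BRAF;p53 embryos, against -0.12, 1.30 and 1.26 in BRAF embryos. It also varied within genotypes without the transgene, at 0.66, 1.49 and -1.28 in p53 embryos and 0.43, -1.74 and 0.11 in wild type. That spread is as wide as the difference between BRAF;p53 and BRAF, and its part in the lipid and intestine results was not tested.

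Intestinal genes were lower on 14 of 15 probe sets, against 60.4% lower of all, with a median of -1.05. Of these, 2 passed the threshold, or 13.3% against 4.50% of all. The brush border enzyme gene si, sucrase-isomaltase, had -1.26, -0.66 and -0.97 in BRAF;p53 embryos, against 0.53, 1.52 and 1.26 in BRAF embryos, and fell by 2.06 ± 0.42 (limma's adjusted p = 0.0201). The lipid-absorption enzyme gene mogat2 fell by 1.05 ± 0.24 (limma's adjusted p = 0.0311). Each held in 7 of 12 fits, with 0.0912 for si and 0.126 for mogat2 without BRAF;p53 replicate 1.

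Liver genes gave 3 called rises and 3 called falls among 59 probe sets of 52 genes, with a median of -0.06 and 10.2% called, against 4.50% of all probe sets. The 3 rises were the 3 probe sets of c9, the terminal complement component, at 0.69, 0.63 and 0.66, each called in all 12 fits. The falls were cp, the copper ferroxidase ceruloplasmin, cyp8b1.1, a bile acid hydroxylase, at -0.88, and apoeb, an apolipoprotein E, at -0.52. The last 2 calls held in 8 of 12 fits each, and were weakest, at 0.126 and 0.0763, when replicate 2 (cyp8b1.1) or replicate 1 (apoeb) of BRAF;p53 was left out.

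The gene cp had one of the most distinct patterns. Its values were -1.33, -1.90 and -1.64 in BRAF;p53 embryos, against 1.72, 1.33 and 1.47 in BRAF embryos, and fell by 3.13 ± 0.19 (limma's adjusted p = 8.03e-06). Without the transgene the direction was the opposite, with 1.15, 0.58 and 1.13 in p53 embryos against -1.26, -1.20 and -0.98 in wild type, a rise of 2.1 ± 0.19 (limma's adjusted p = 0.000157).

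Stress and redox genes gave 5 falls and 1 rise among 68 probe sets of 57 genes, or 8.82% called against 4.50% of all. The falls were xbp1, a factor of the unfolded protein response (-0.63 ± 0.11), herpud1, of endoplasmic reticulum degradation (-0.45 ± 0.10), gclc, which limits glutathione synthesis (-0.63 ± 0.12), and the glutathione peroxidases gpx1a (-0.48 ± 0.11) and gpx1b (-0.98 ± 0.23). Their limma adjusted p ran from 0.00996 for xbp1 to 0.0367 for gpx1b. The xbp1 call held in all 12 fits. The others held in 7 for herpud1 (0.122 without BRAF;p53 replicate 1), 10 for gclc (0.0788, same array left out), 7 for gpx1a (0.0897 without BRAF;p53 replicate 2) and 5 for gpx1b (0.138 without BRAF;p53 replicate 1). The small heat shock gene hspb8 rose by 0.82 ± 0.16 (limma's adjusted p = 0.0172, 10 of 12 fits, 0.0786 without BRAF;p53 replicate 1).

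Epidermal genes gave 4 rises and 2 falls among 38 probe sets, or 15.8% called against 4.50% of all. Both probe sets of icn2, an epidermal calcium-binding gene, rose, by 0.95 and 0.66, as did krt17, a keratin, by 0.61 and anxa1a, annexin A1, by 0.55. The keratins krt94 and krt93 fell by 0.75 and 0.35. Of these, the smaller icn2 change held in all 12 fits and the larger in 10 (0.0547 without BRAF;p53 replicate 1), and the others held in 3 for anxa1a and 7 for krt93 (0.122 and 0.15 with the same array left out) and in 4 for krt17 and 8 for krt94 (0.158 and 0.0912 with BRAF;p53 replicate 2 left out).

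Circadian genes gave 1 rise and 2 falls among 38 probe sets, or 7.89% called against 4.50% of all. The orphan receptor gene rorcb had -1.52, -0.36 and -1.32 in BRAF;p53 embryos, against 1.12, 1.52 and 1.51 in BRAF embryos, and fell by 2.45 ± 0.34 (limma's adjusted p = 0.00283). The DNA repair photolyase gene cry5, light-induced in zebrafish, fell by 1.00 ± 0.14 (limma's adjusted p = 0.00307), and both were called in all 12 fits. The second probe set of cry5 differed by -0.35 and did not pass (limma's adjusted p = 0.179). The glucocorticoid-induced repressor gene zbtb16a rose by 0.77 ± 0.15 (limma's adjusted p = 0.0155), called in 10 fits, with 0.0735 without BRAF;p53 replicate 1.

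Among the remaining lists, the lens chaperone gene cryaa, alpha-A crystallin, rose by 1.40 ± 0.12 (limma's adjusted p = 0.000172), with 0.16, 0.14 and 0.03 in BRAF;p53 embryos against -1.32, -1.17 and -1.38 in BRAF embryos. The other 6 lens probe sets did not pass, so 14.3% of that list was called, against 4.50% of all. In cartilage and bone, 1 of 6 probe sets of the matrix link protein gene hapln1a rose, by 0.91 ± 0.11 (limma's adjusted p = 0.00103), while the other 5 differed by -0.08 to 0.46 and did not pass (lowest adjusted p 0.0976). The osteoblast factor gene runx2b fell on 1 probe set by 0.75 ± 0.18 (limma's adjusted p = 0.038, held in 5 of 12 fits, 0.161 without BRAF;p53 replicate 2). Calls came to 5.88% of the 34 cartilage and bone probe sets. Of 71 ribosomal protein probe sets, rpl21 fell and held in 5 fits (0.159 without BRAF;p53 replicate 1), and of 40 proteasome probe sets, psmd4b rose and held in all 12. The cell cycle and replication list gave 2 rises and 1 fall among 66 probe sets, or 4.55% called against 4.50% of all. Of the 66, 45 had negative differences, with a median of -0.09. Thymidine kinase, tk1, was called in both directions on its 2 probe sets, at 0.90 and -0.90, and its direction is therefore not settled. The spindle checkpoint gene mad2l1 rose by 0.42 ± 0.10, held in 8 fits (0.134 without BRAF;p53 replicate 2). The photoreceptor list gave 1 rise among 23 probe sets (4.35%), gnb1b, a G protein subunit (0.64 ± 0.14, 8 fits, 0.106 without BRAF;p53 replicate 1). Yet 18 of the 23 had negative differences, none past the threshold, against 60.4% negative of all probe sets. The median of that list was -0.19. The elongation list had 6.67% of its 30 probe sets called. It gave 1 rise, nelfcd, of the pausing factor NELF (0.48 ± 0.10, 8 fits, 0.106 without BRAF;p53 replicate 2), and 1 fall, supt5h, its partner in pausing (-0.40 ± 0.10, 3 fits, 0.186 with the same array left out). Nucleotide synthesis gave 2 falls among 26 (7.69%), adss1 (-0.44 ± 0.09, 9 fits, 0.0673 without BRAF;p53 replicate 1) and mthfd1b (-0.58 ± 0.13, 8 fits, 0.14 without BRAF;p53 replicate 2), and dhodh, a pyrimidine synthesis enzyme, differed by -0.11 ± 0.12 (limma's adjusted p = 0.634). The lists for DNA repair, skeletal muscle, neurons, myelin and glia, erythrocytes, leukocytes and the respiratory chain had no call by limma, with 33 of their 209 probe sets (15.8%) at an unadjusted p under 0.05, against 22.0% of all. Over the 29 lists, 53 of 921 probe sets were called, against 4.50% of all.

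**Figure D3:**
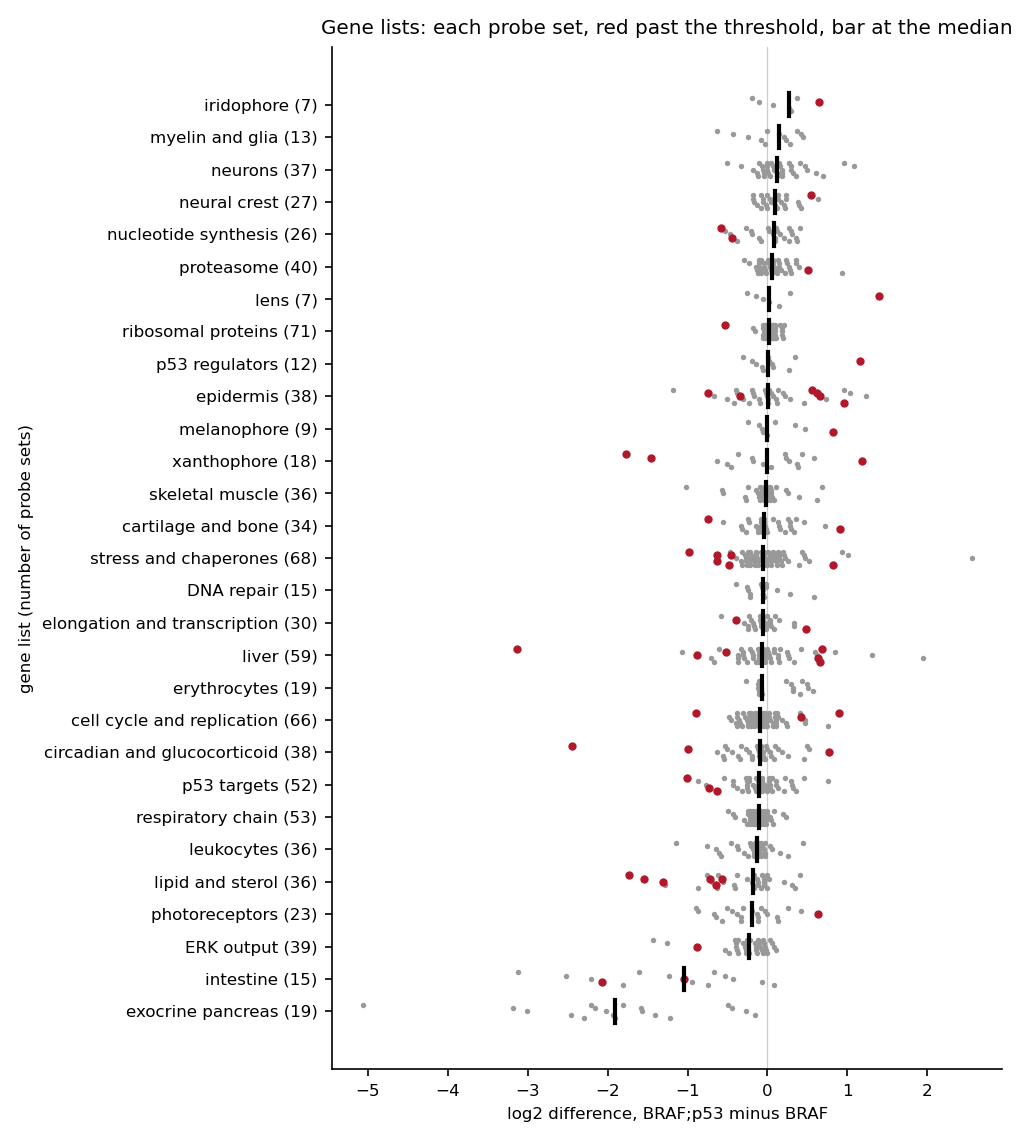
Log2 difference of BRAF;p53 minus BRAF (x axis) for every probe set of the 29 gene lists (y axis, number of probe sets in parentheses), red where past the threshold, with a bar at each list's median. The exocrine pancreas list has its median at -1.91 with no red point, and the lipid and sterol list has 6 red points, all below 0.

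Most of the largest named rises were of genes that were low in BRAF embryos. For 17 of the 20, all 3 BRAF arrays lay below the arrays without the transgene, the exceptions being mhc1zba, si:dkey-238c7.12 and zgc:66479. The top 20 by log2 difference, 1 probe set a gene, ran from 7.0 for ube2q2 to 1.83 for rnf4. The gene ube2q2, a ubiquitin-conjugating enzyme, had 0.85, 0.68 and 1.24 in BRAF;p53 embryos, against -5.51, -6.36 and -6.36 in BRAF embryos, a rise of 7.0 ± 0.33 (limma's adjusted p = 2.18e-06). The arrays without the transgene ran from -0.89 to 0.52, so that BRAF embryos were alone in a far lower range.

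The gene copb2, a subunit of the COPI vesicle coat, had 0.48, 0.57 and 0.54 in BRAF;p53 embryos, against -2.96, -3.71 and -4.17 in BRAF embryos, a rise of 4.15 ± 0.40 (limma's adjusted p = 0.000285). The other probe sets of copb2 differed by 0.02 and 0.25 and did not pass (limma's adjusted p = 0.941 and 0.349). The gene mhc1zba, an MHC class I gene of a multigene family, had 1.32, 1.40 and 1.32 in BRAF;p53 embryos, against -1.46, -3.23 and -0.65 in BRAF embryos, a rise of 3.13 ± 0.50 (limma's adjusted p = 0.00602). A probe set in such a family may read related copies. BRAF;p53 arrays were also above all arrays without the transgene for this probe set, where the highest was 0.43.

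Others of the 20 include acvr2ba, a type II activin receptor (2.99 ± 0.43), lgals3b, a galectin (2.91 ± 0.26), uchl1, a neuronal deubiquitinase (2.59 ± 0.47), sarm1, the NAD-cleaving enzyme of axon degeneration (2.32 ± 0.22), and prph, the peripheral neuron filament peripherin (2.01 ± 0.25). The other probe sets of acvr2ba differed by 0.04 and 0.18 and did not pass (limma's adjusted p = 0.924 and 0.556). The gene znhit1, a subunit of the SRCAP chromatin remodelling complex, had -0.15, 0.10 and -0.14 in BRAF;p53 embryos, against -2.15, -2.44 and -2.41 in BRAF embryos, a rise of 2.27 ± 0.12 (limma's adjusted p = 4.24e-06). Its other probe sets differed by 1.56, -0.72 and -0.38 (limma's adjusted p = 5.78e-05, 0.0188 and 0.166), so the direction of znhit1 is not settled. The gene rnf4, a ubiquitin ligase that acts on sumoylated proteins, had 0.16, 0.25 and 0.11 in BRAF;p53 embryos, against -1.95, -1.39 and -1.64 in BRAF embryos. The remaining genes were rnf13, si:dkey-238c7.12, si:ch1073-340i21.3, tmem254, plekhh1, ndrg4, zgc:66479, tedc2, si:dkey-260j18.2 and msi2b. Other probe sets went the opposite way for tmem254 (-0.44) and si:dkey-260j18.2 (-0.965 and -0.188). None of these passed (limma's adjusted p = 0.118, 0.0715 and 0.49), and the direction of these genes is not settled. Those of ndrg4 and msi2b went the same way, by 1.34 and 1.19.

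The 20 largest named falls ran from -4.06 for wls to -1.79 for ush1c. The gene wls, the carrier of Wnt proteins to the cell surface, had 3.29, -1.02 and 3.55 in BRAF;p53 embryos, against 6.60, 5.21 and 6.17 in BRAF embryos. The double mutant arrays disagreed with each other, and the arrays without the transgene were all at 0.13 or below. It fell by 4.06 ± 0.93 (limma's adjusted p = 0.0331), which held in 8 of 12 fits, with 0.0865 without BRAF replicate 1. The other probe sets of wls differed by -0.26 and -0.15 and did not pass (limma's adjusted p = 0.518 and 0.502). The intramembrane protease gene sppl2 had -2.10, -1.99 and -2.24 in BRAF;p53 embryos, against 1.29, 1.30 and 1.17 in BRAF embryos, and fell by 3.37 ± 0.59 (limma's adjusted p = 0.00965).

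The falls also held ppargc1b, the PGC-1 beta coactivator of mitochondrial genes, at -2.17 ± 0.25, ttpa, the vitamin E transfer protein, at -2.40 ± 0.52, and abat, which breaks down the transmitter GABA, at -2.05 ± 0.20. The gene ppargc1b had -0.38, -0.22 and -0.74 in BRAF;p53 embryos, against 1.40, 1.93 and 1.86 in BRAF embryos, and its second probe set also fell, by 1.32. The gene enc2 had -1.45, -1.43 and -1.94 in BRAF;p53 embryos, against 0.37, 0.90 and 0.88 in BRAF embryos, and fell by 2.33 ± 0.19 (limma's adjusted p = 7.99e-05). The other members were si:dkeyp-73d8.9, cp, rorcb, ruvbl2, pm20d1.1, capn2l, tmem263, si, mchr1b, thy1, si:dkeyp-1h4.9, itm2ba and zfand3, besides ush1c. Other probe sets of tmem263 differed by 0.432 and -0.185 and that of itm2ba by -0.233. None of these passed (limma's adjusted p = 0.168, 0.265 and 0.23).

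Of these 40 probe sets, 32 were called in all 12 fits that left out 1 array. The exceptions were zgc:66479 (3 fits, highest adjusted p 0.144 without BRAF;p53 replicate 1), pm20d1.1 (7, 0.122, same array), zfand3 (8, 0.0982, same array), si, described above, ttpa (8, 0.0794 without BRAF replicate 2), wls, thy1 (11, 0.061 without BRAF replicate 1) and si:ch1073-340i21.3 (11, 0.0539 without BRAF;p53 replicate 2). A second probe set existed for 14 of the 40 genes, and in 5 of them (ndrg4, znhit1, prph, msi2b and ppargc1b) a second one had a difference of the same sign and of 0.5 or more of its size. Over all called probe sets of genes with another probe set, 76 of 159 (47.8%) had such a partner. For znhit1 and prph the partner's name differed from that of the named probe set only in its suffix, so it may not be independent. The other probe sets of prph differed by 0.80 and -0.13. Probe sets of msrb1a, znhit1, hacl1, tk1, kyat1 and slc37a4a were called in both directions.

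Most called differences lay where BRAF embryos, and not BRAF;p53 embryos, were outside the range of the arrays without the transgene. Of the 698, 381 (54.6%) had all 3 BRAF arrays on 1 side of the range of the 6 arrays without the transgene while BRAF;p53 arrays were not, against 9.24% of all probe sets. The reverse, with BRAF;p53 alone apart, held for 99 (14.2%), against 5.58%. Both genotypes were apart on the same side for 28 and on opposite sides for 36, and neither was apart for 154 (22.1%). By direction, BRAF alone was apart for 181 of the 314 rises (57.6%) and for 200 of the 384 falls (52.1%). Since the called probe sets were chosen for the distance between BRAF;p53 and BRAF, these shares describe them and carry no test.

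The effect of p53 loss was next set beside that in embryos without the transgene, in which p53 minus wild type passed for 284 probe sets (1.83%), 117 higher (0.755%) and 167 lower in p53 (1.08%). These comparisons share no array. Of the 698 probe sets, 60 were called in both, which is 8.60% of the 698 and 21.1% of the 284. They had the same direction in 23 and the opposite in 37. Across all probe sets the effects correlated at 0.08 (Pearson's r over 15502 probe sets, which are not independent replicates), and across the 698 at 0.03. The sign was the same for 331 of the 698, or 47.4%.

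The genes that fell in both were ruvbl2, an ATPase of chromatin remodelling complexes, capn2l, thy1, a cell surface glycoprotein, tsc1a, an inhibitor of mTORC1, cry5, api5, an inhibitor of apoptosis, bphl, rtkn2, osbpl2b, chmp1a and zgc:112271. Those that rose in both were caspb, an inflammatory caspase, mpdu1a and si:ch1073-340i21.3. The called probe set of capn2l had -1.64, -1.66 and -1.52 in BRAF;p53 embryos, against 0.73, -0.05 and 1.00 in BRAF embryos, and -0.76, -1.46 and 0.05 in p53 embryos, against 1.32, 1.27 and 0.72 in wild type. Both p53-deficient genotypes were lower than their partner, by 2.17 ± 0.35 with the transgene and by 1.83 ± 0.35 without it (limma's adjusted p = 0.00625 and 0.0251). The other probe sets of capn2l differed between BRAF;p53 and BRAF in the opposite direction, by 0.18 and 0.48, and did not pass (limma's adjusted p = 0.502 and 0.0887). The gene thy1 had -0.25, -2.44 and -0.72 in BRAF;p53 embryos, against 1.13, 0.66 and 0.91 in BRAF embryos, and -2.24, -2.43 and -2.11 in p53 embryos, against 0.21, 0.32 and 0.69 in wild type.

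The effects of p53 loss with and without the transgene differed for 497 probe sets in limma's interaction test (3.21%), with 249 positive (1.61%) and 248 negative (1.60%), and these included 288 of the 698 (41.3%). The 698 were chosen by a difference that is itself a term of the interaction, so that share is a description with no test. The labels of p53 replicates 1 and 2 read 1a and 1b, and whether those share embryos is not given in the sources used here. Counting both as 1 sample gave 312. The count was 284 and 292 without replicates 1 and 2 of BRAF;p53, 325 without p53 replicate 1, 307 without p53 replicate 2, 304 without wild type replicate 2 and 787 without p53 replicate 3. The smallest p-values belonged to cp, pbldp, slc25a14, ube2q2, sult1st1, zbtb16a, znhit1, mchr1b, st6gal2a and sult6b1. In several of these it was wild type, not BRAF, that stood apart. On 1 of its probe sets, the mitochondrial carrier gene slc25a14 had -0.39, -0.45 and -0.04 in BRAF;p53 embryos and 0.25, -0.01 and 0.12 in BRAF embryos, with -0.05, 0.01 and -0.14 in p53 embryos against 5.05, 5.28 and 6.10 in wild type. Its p53 effect with the transgene did not pass (-0.42 ± 0.22, limma's adjusted p = 0.299), and its effect without it was -5.54 ± 0.22 (limma's adjusted p = 7.74e-07). The other probe sets of slc25a14 differed by -0.21 and -0.13 between BRAF;p53 and BRAF and did not pass (limma's adjusted p = 0.664 and 0.778). Their effect without the transgene is not given here.

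The gene mchr1b, a receptor for melanin-concentrating hormone, fell with the transgene and rose without it on 1 of its probe sets. It had -0.47, -0.41 and -0.86 in BRAF;p53 embryos, against 2.09, 1.23 and 1.09 in BRAF embryos, and 0.41, 0.32 and 0.78 in p53 embryos, against -2.05, -2.64 and -2.31 in wild type. The effects were -2.05 ± 0.25 and 2.84 ± 0.25, and their difference was -4.89 ± 0.36 (limma's adjusted p = 3.93e-05). Its second probe set differed by -0.06 between BRAF;p53 and BRAF (limma's adjusted p = 0.679). The repressor gene zbtb16a did the opposite, with 0.77 ± 0.15 with the transgene and -2.25 ± 0.15 without it, a difference of 3.02 ± 0.21 (limma's adjusted p = 2.89e-05).

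**Figure D4:**
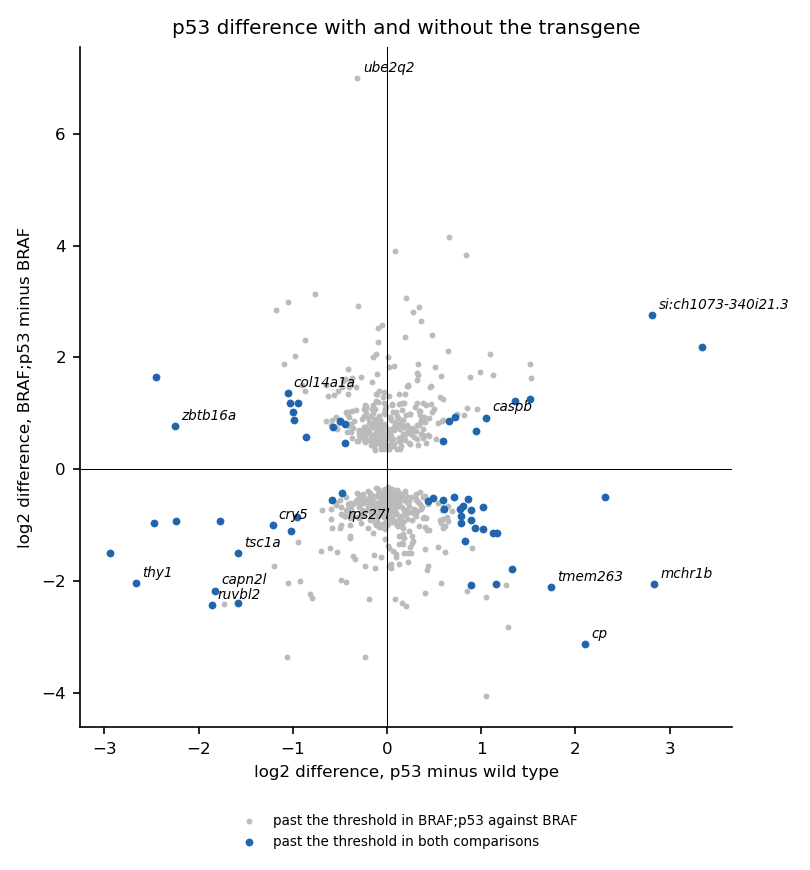
Log2 difference of p53 minus wild type (x axis) against that of BRAF;p53 minus BRAF (y axis) for the 698 probe sets called in BRAF;p53 against BRAF, with the 60 called in both comparisons in blue. Blue points lie in all 4 quadrants, 23 with the same sign and 37 with opposite signs.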

How the data were processed

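The authors deposited 1 table of log2 values for 12 Affymetrix arrays. GCRMA is named in the submitters' processing notes, without a version. In linear units the median over arrays was 1, within 0.0001, for 13937 probe sets and below 1 for 1680, so the log2 values as deposited are centred per probe set, and how the centring was done is not given in the sources used here. The lowest value, log2 of 0.01, was met by 4 values, none on the 6 arrays compared. Arrays were grouped by title, and no batch was given. Gene symbols came from the platform annotation: 10795 probe sets had 1 symbol, 135 several and 4572 none, and 10711 symbols were found in RefSeq's GRCz12tu gene table.

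limma 3.58.1 in R 4.3.3 fitted a mean per genotype over all 12 arrays (8 residual and 3.05 prior degrees of freedom), with contrasts for BRAF;p53 minus BRAF, p53 minus wild type and their difference, and Benjamini-Hochberg adjustment over 15502 probe sets at 0.05. Intervals given as ± on a difference are standard errors. In data simulated for BRAF;p53 against BRAF on 15502 probe sets, 30%, 76%, 96% and 98% of 50 probe sets each with log2 changes of 0.5, 1, 2 and 3 were recovered, with 6 false among 156 calls. The simulated noise was normal and independent between arrays and probe sets, with 1 SD per probe set for all genotypes. No simulated array stood apart as BRAF replicate 1 did, so these rates may not hold for the real arrays. The named genes were the 20 largest rises and 20 largest falls among called probe sets with 1 symbol, the 10 smallest interaction p-values, list members past the threshold, and a few fixed genes of the p53, pigment and ERK pathways. The members, the 29 gene lists and the tests were chosen with earlier results of these data known. Alternatives were quantile normalization, centred array medians, limma's trend and robust settings, a replicate block, the 6 compared arrays alone, probe sets averaged per gene, p53 samples 1a and 1b averaged, probe sets with a linear median of 1, a size limit, and leaving out each array.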

Additional observations from a re-analysis of the deposited data

Results flagged for a closer look

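Of the 105 probe sets named by the rules, 46 had a p53 effect that differed between embryos with and without the transgene by limma's interaction test, 25 of them among the 40 largest changes. Over all probe sets the share was 3.21%, and the choice of the 105 raises theirs, since 10 were taken by their interaction p and many others for a large difference that is a term of the interaction. Each value below is the log2 difference of BRAF;p53 minus BRAF, less that of p53 minus wild type. Positive values were ube2q2 (7.32), slc25a14 (5.12), acvr2ba (4.04), rnf13 (4.02), mhc1zba (3.89), copb2 (3.49), lgals3b (3.23), sarm1 (3.18), zbtb16a (3.02), si:dkey-260j18.2 (2.98), tmem254 (2.62) and si:dkey-238c7.12 (2.56). Smaller positive values were znhit1 (2.36), sult1st1 (2.29), ndrg4 (2.18), prph (2.16), tedc2 (1.99), cryaa (1.92), rnf4 (1.82), usp7 (1.31), tk1 (1.17), gnb1b (0.82), hapln1a (0.79), nelfcd (0.72), icn2 (0.71), mad2l1 (0.59) and psmd4b (0.59). Negative values were cp (-5.23), mchr1b (-4.89), tmem263 (-3.85), si (-3.33), abat (-3.21), ppargc1b (-3.02), st6gal2a (-2.91), pbldp (-2.81), rorcb (-2.65), si:dkeyp-1h4.9 (-2.61), enc2 (-2.41) and ush1c (-2.22). Smaller negative values were sult6b1 (-2.11), bco2l (-1.81), tk1 (-1.11), krt94 (-1.07), cpt2 (-1.0), plk3 (-0.68) and mvk (-0.57). The tk1 gene appears with both signs, 1 per probe set. Every value is that of 1 probe set, and other probe sets of the same gene can differ from it, as described above. No group was large enough for a test of single outlying arrays.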

How the results depend on the processing

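The count of 698 was 606 with limma's trend and robust settings, 596 on the 6 compared arrays alone, 629 with probe sets averaged per gene and 874 after quantile normalization. Quantile normalization gave 473 rises and 401 falls. With a log2 size of at least 1 the counts were 220 (117 higher, 103 lower) for BRAF;p53 against BRAF and 317 for the interaction (149 negative). Averaging p53 samples 1a and 1b gave 312 interaction calls (161 positive, 151 negative). Leaving out 1 array gave 302 to 982 calls (151 to 410 higher, 150 to 572 lower) and 284 to 787 interaction calls (141 to 372 positive, 137 to 415 negative). Leaving out BRAF replicate 1 and p53 replicate 3 together, chosen after the data were seen, gave 1162 (543 higher, 619 lower) and 1469 (783 positive, 686 negative). With the replicate number as a block the counts were 703 and 481. Deviations of same-numbered arrays of BRAF;p53 and BRAF correlated at 0.05, -0.04 and 0.18, BRAF;p53 replicate 2 correlated best with BRAF replicate 1 (0.14), and the numbers are not known to pair samples. Of 92 named probe sets past the threshold, 44 passed in every setting. A single direction reversed: a tk1 probe set at -0.90 became 0.001 when its probe sets of opposite sign were averaged. Signal over background is unknown and limits all small differences.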

Other observations

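Some gene families, chosen after their values were seen and taken whole by symbol, are described here with no test of the family. Over all probe sets 60.4% were lower, 4.50% were called, 2.03% were called higher and 2.48% were called lower. Coenzyme Q is the electron carrier of the respiratory chain, and of 8 probe sets of 7 coq genes all were lower in BRAF;p53 than in BRAF embryos, with a median of -0.46. The 4 called were coq7 (-0.87 ± 0.19), coq9 (-0.63 ± 0.12) and both probe sets of coq8aa (-0.58 ± 0.14 and -0.61 ± 0.11). The PGC-1 and estrogen-related receptor genes, which act on mitochondrial genes together, had 3 of 4 probe sets called lower, namely 2 of ppargc1b and esrrga (-0.44 ± 0.11), while esrrgb differed by -0.03. The respiratory chain list itself had no call, but 47 of its 53 probe sets were lower, with a median of -0.11 against -0.06 over all probe sets. Its per-array median was -0.007, -0.027 and -0.078 in BRAF;p53 embryos, against 0.126, 0.021 and 0.010 in BRAF embryos, highest in BRAF replicate 1. Without the transgene the list's median for p53 minus wild type was -0.12.

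Subunits of the Arp2/3 complex, which nucleates branched actin, had 2 of 7 probe sets called higher, 1 of arpc5a (0.80 ± 0.17) and arpc5b (0.42 ± 0.09), while the second arpc5a probe set differed by 0.14. All 3 probe sets of nusap1, a mitotic spindle protein, were called higher, at 0.45, 0.81 and 0.82.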
